A study of Mus musculus with 37 samples.

Results

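The 57 genes described here encode the machinery that senses DNA damage, halts the cell cycle and repairs DNA. They were chosen by gene symbol from general knowledge of the repair pathways, with earlier results of these data known, and all 57 were found in each of 4 RNA-seq tables, which list 25053 (GV oocytes of the ZH line), 19033 (GV oocytes of the CabZ line), 24305 (2-cell embryos of the CabZ line) and 15855 genes (2-cell embryos after injection). The study asked how the Hira complex, a chaperone that places the histone variant H3.3 on DNA, acts in the oocyte. Each gene was put into 1 pathway, with 10 genes of damage sensing and checkpoint signalling, 8 of homologous recombination, 5 of non-homologous end joining, 8 of base excision and single-strand break repair, 4 of mismatch repair, 9 of nucleotide excision repair, 6 of the Fanconi anaemia pathway, 6 of single-strand binding, clamp, damage tolerance and ligation, and Gadd45a for damage-induced growth arrest.

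All mice were of the C57BL/6 background. ZH KO oocytes had lost part of Hira, and CabZ KO oocytes part of Cabin1, through Zp3-Cre, a recombinase driven by an oocyte promoter that cuts floxed alleles in growing oocytes. The controls, ZH Het and CabZ Het, were heterozygous littermates that carried Zp3-Cre as well, so all 4 genotypes share the transgene and no group is wild type for the floxed locus. Fully grown oocytes were taken at the germinal vesicle (GV) stage, before the first meiotic division, with 4 libraries for each genotype. The CabZ line was also sequenced at the 2-cell stage, again with 4 libraries per genotype. The sources used here do not say whether these embryos came from fertilisation or from parthenogenetic activation. In the injection experiment, wild-type GV oocytes received Zscan4d RNA (labelled Zscan4 OE, 3 libraries) or GFP RNA (4 libraries), were matured in vitro, activated without sperm and collected as 2-cell embryos. Pooled CabZ GV oocytes were also profiled by ATAC-seq, which cuts open chromatin, with 3 libraries per genotype. Methods and sample records differ on the RNA-seq libraries, pools of oocytes in the former and individual cells in the latter, and nothing says which libraries came from separate animals, so the spread between libraries may be partly technical.

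Cells meet DNA breaks with the kinases Atm and Atr, which signal through Chek1 and Chek2, and mend them by homologous recombination, which copies an intact strand, or by end joining, which ligates the ends. Damaged or mispaired bases are removed by base excision, mismatch and nucleotide excision repair, and the Fanconi anaemia proteins clear crosslinks between strands. Mouse oocytes rest for a long time before ovulation, grow without dividing and then stop transcribing, so the embryo begins development with repair proteins and transcripts that the oocyte stored, until its own genome is switched on at the 2-cell stage.

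Values are reads on a gene scaled to the reads of its library (RPM), restored from the deposited values, and levels between genes are compared only per kb of exon. RPM are relative to the authors' total in the ZH and injection tables and to the reads on the genes listed in the CabZ tables. Levels per kb are relative to the reads on the genes listed in every table, so in the ZH and injection tables they are not the RPM divided by length. Per library, an estimated 5818819 to 21847738 reads fell on the genes listed. All numbers of reads given here are estimates from the spacing of the deposited values. In the ZH table, Hira was at 0.1 to 1.1 RPM in the ZH Het and 0.0 to 0.8 RPM in the ZH KO oocytes, too few reads to check the labels. Cabin1 was at 10.5 to 18.8 RPM in CabZ Het and 1.5 to 5.7 RPM in CabZ KO oocytes, and at 27.1 to 53.8 RPM and 7.6 to 21.4 RPM in the 2-cell embryos. Zscan4d was at 332 to 711 RPM in the GFP libraries and at 336 to 403 RPM in those labelled Zscan4 OE, so that it was not higher in the latter. The sum of 12 oocyte markers was 19201 to 20941 RPM in ZH Het, 11225 to 19744 RPM in ZH KO and 20560 to 30754 RPM in the CabZ oocytes. ZH KO replicate 2 stood apart in several members. Over all genes tested, its mean correlation with its group was 0.945, against 0.945, 0.946 and 0.962 in ZH KO replicates 1, 3 and 4. CabZ KO 2-cell replicate 4 held 818 RPM of the macrophage gene Lyz2, against 0 to 145 RPM in the other libraries of its table. Calls that changed without ZH KO replicate 2 or CabZ KO 2-cell replicate 4 are given beside the counts or the gene.

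Promoters are shown for 6 members on which the comparisons turn, the 4 called in the oocytes of both lines (Xrcc5, Ogg1, Mlh3 and Ercc4) and the break repair gene Brca2 and mismatch repair gene Msh3, which moved at the 2-cell stage. Each runs 5′ to 3′ on the strand of the gene, from 250 bases before to 50 bases after the RefSeq start in GRCm38.p6. Capitals mark every match on either strand to the letters searched, which were E2F (TTTCGCGC, TTTGGCGC, TTTCCCGC or TTTGCCGC), the palindromic core of the NRF1 motif, CCAAT and the cAMP response element (TGACGTCA). For Mlh3, with 2 starts listed, the first is shown.
Xrcc5 (chr1:72307171-72307470, plus strand): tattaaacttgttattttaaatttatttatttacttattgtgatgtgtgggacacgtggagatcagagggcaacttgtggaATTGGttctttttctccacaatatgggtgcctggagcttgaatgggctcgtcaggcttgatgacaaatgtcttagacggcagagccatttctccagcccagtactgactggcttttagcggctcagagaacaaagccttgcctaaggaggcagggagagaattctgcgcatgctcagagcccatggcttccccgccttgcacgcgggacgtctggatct
Ogg1 (chr6:113326726-113327025, plus strand): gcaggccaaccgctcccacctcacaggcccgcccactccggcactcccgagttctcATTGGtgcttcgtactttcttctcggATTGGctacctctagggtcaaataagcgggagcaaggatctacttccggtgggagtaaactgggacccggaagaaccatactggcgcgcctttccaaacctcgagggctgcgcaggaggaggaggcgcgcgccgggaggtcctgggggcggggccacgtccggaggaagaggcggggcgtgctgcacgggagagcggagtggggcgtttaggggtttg
Mlh3 (chr12:85270550-85270849, minus strand): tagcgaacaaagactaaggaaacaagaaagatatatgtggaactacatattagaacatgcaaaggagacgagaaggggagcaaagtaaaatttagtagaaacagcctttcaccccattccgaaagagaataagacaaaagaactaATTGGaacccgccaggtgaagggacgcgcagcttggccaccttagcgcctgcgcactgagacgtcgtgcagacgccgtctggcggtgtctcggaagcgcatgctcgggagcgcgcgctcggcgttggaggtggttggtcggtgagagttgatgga
Ercc4 (chr16:13109486-13109785, plus strand): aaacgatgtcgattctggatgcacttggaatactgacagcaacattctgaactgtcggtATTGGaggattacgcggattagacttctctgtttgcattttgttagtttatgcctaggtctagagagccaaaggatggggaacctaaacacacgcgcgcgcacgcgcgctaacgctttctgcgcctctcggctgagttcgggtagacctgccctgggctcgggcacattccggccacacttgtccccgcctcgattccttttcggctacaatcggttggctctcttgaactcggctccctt
Brca2 (chr5:150522371-150522670, plus strand): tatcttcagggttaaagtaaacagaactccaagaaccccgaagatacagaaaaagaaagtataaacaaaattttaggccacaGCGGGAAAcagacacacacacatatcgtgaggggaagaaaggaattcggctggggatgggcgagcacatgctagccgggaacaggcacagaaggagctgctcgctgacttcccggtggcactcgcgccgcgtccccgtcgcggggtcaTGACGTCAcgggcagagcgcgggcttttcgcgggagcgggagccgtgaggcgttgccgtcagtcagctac
Msh3 (chr13:92354954-92355253, minus strand): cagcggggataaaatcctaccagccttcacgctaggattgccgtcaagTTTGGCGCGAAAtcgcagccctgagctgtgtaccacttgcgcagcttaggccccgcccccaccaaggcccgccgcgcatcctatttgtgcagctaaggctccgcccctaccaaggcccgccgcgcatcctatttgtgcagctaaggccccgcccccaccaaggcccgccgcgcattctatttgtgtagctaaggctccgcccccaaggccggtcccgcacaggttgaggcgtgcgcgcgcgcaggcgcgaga

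The window of Ogg1 held 2 CCAAT boxes and those of Xrcc5, Mlh3 and Ercc4 held 1 each. Brca2 held 1 E2F match and 1 cAMP response element, and Msh3 held 2 E2F matches that overlap each other. Promoters were found for 49 of the 57 members. E2F letters were in 9 of these 49 (18.4%: Brca2, Chek2, Lig1, Mdc1, Msh3, Msh6, Rad51c, Topbp1 and Xrcc6), against 2.61% of all 27025 genes with promoters of the same length. CCAAT letters were in 29 of the 49 members (59.2%) and in 41.1% of all genes. NRF1 letters were in 1 member, Lig4 (2.04%, against 1.07% of all genes), and the cAMP response element in 2, Brca2 and Rad51c, against 2.03% of all genes.

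The control oocytes held a few repair transcripts at high levels and many at low ones. Per kb of exon, Chek1, the kinase that holds the cell cycle while replication is disturbed, was highest among the members in both lines, at 193 ± 20.7 RPM per kb in ZH Het and 234 ± 16 RPM per kb in CabZ Het oocytes (mean ± SD, n = 4). Rpa3, the smallest subunit of the RPA complex that coats single-stranded DNA, came next, at 146 ± 20.1 and 168 ± 13.3 RPM per kb. The highest members of the other pathways in ZH Het oocytes were Xrcc5, a subunit of the Ku ring that binds broken ends (70.7 ± 3.59 RPM per kb), Apex1, which cuts DNA where a base is missing (65.8 ± 5.82 RPM per kb), Msh3, a sensor of mispaired loops (35.9 ± 2.61 RPM per kb), Ddb2, which finds ultraviolet lesions (31.3 ± 4.8 RPM per kb), the annealing factor Rad52 (26.2 ± 4.93 RPM per kb) and Fancc, a core Fanconi protein (11 ± 1.57 RPM per kb). In CabZ Het oocytes the same genes led, except that Fancl, the ubiquitin ligase of the Fanconi core, was above Fancc (12.2 ± 0.852 against 8.39 ± 0.543 RPM per kb). At the other end, Atm, Chek2, Prkdc, Mdc1, Mlh3, Fanca and Ercc2 all had means under 1 RPM per kb in both lines. Of the exon bases of the members named here, 70.8% in Apex1 are also exons of a gene on the other strand, Pip4p1. This share was 26.7% in Ddb2 (with Acp2), 16.96% in Fancl (with Vrk2) and, in Ercc2, 18.1% with Gm26852 and 16.4% with Klc3. The libraries do not mark strand, so reads of either gene in such bases cannot be told apart.

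The levels in 2-cell controls stood in another order. The tables were scaled separately, so levels are set side by side without a test. Atm read 0.511 ± 0.143 RPM per kb in CabZ Het oocytes and 21.4 ± 3.08 RPM per kb in CabZ Het 2-cell embryos, and Chek2, the kinase that carries its signal, 0.939 ± 0.302 and 30.1 ± 8.3 RPM per kb. The stress gene Gadd45a likewise stood at 1.63 ± 0.597 and 44.1 ± 17 RPM per kb. Brca2, a central gene of homologous recombination, stood at 17.3 ± 4.66 and 62.3 ± 7.99 RPM per kb. Both Ku subunits went the other way, with Xrcc5 at 79.7 ± 1.91 and 3.34 ± 1.03 RPM per kb and Xrcc6 at 20.6 ± 6.46 and 2.82 ± 1.07 RPM per kb. The same held for Ogg1, the glycosylase that removes oxidised guanine, at 5.19 ± 0.732 and 0.461 ± 0.257 RPM per kb. In the parthenogenetic GFP embryos of the injection experiment, Atm was at 2.49 ± 0.168, Chek2 at 1.46 ± 0.262, Gadd45a at 7.13 ± 2.49, Brca2 at 22.8 ± 2.83, Xrcc5 at 6.52 ± 2.09 and Ogg1 at 2.03 ± 0.642 RPM per kb.

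The first comparison asked which repair transcripts change in oocytes that lost Hira. Fewer rose than fell. Of 56 members tested, 10 rose (17.9%) and 17 fell (30.4%) in ZH KO against ZH Het oocytes, where 27.4% of all 13709 genes tested rose and 26.3% fell. The share that fell was near that of all genes and the share that rose was below it. Brca2, the mismatch sensor Msh6 and the oxidised guanine glycosylase Ogg1 were among those that fell, and the kinase Atm, the Ku subunit Xrcc5 and the mismatch repair nuclease Mlh3 among those that rose. Falls and rises came within the same pathway in all but the Fanconi anaemia list, where 2 of 6 genes fell and none rose, and Gadd45a, which did not pass the test.

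Tests were made with limma on log2(RPM + 1) in genes with a mean of at least 1 RPM, passing at a Benjamini-Hochberg adjusted p under 0.05, and fold changes are on this scale, which understates changes of low genes. Means are given ± SD (n = 4 libraries per group), fold changes with or ± SE, and positions in mm10 as the tables give them. The median log2 fold change was -0.08 for the members and -0.04 for all genes tested. With a fold change above 2 as well, 3 members rose and 10 fell, against 16.0% and 12.8% of all genes. ZH KO and ZH Het libraries did not overlap in 11 members that were higher and 16 that were lower in ZH KO, against 25.3% and 22.3% of all genes. The split depended on the scaling. After a shift of each library to a common median, 16 members rose and 13 fell, where 33.6% of all genes rose and 19.5% fell. With each library scaled to the reads of the table, 14 rose and 13 fell, where 32.6% of all genes rose and 20.0% fell. No called member changed sign under either scaling, but Ercc5, Lig4 and Mdc1 lost their calls under both, Rad51c under the median shift and Rpa1 under the other. Without ZH KO replicate 2, 11 rose and 20 fell, since Rad52, Rad54l, Xpa and Xrcc1 then passed as well. Of all genes, 26.8% then rose and 30.1% fell. That library was singled out by the values of these same members, so calls and lower adjusted p without it are description only. All these values are relative to the total of a library, so they do not give the amount of RNA per oocyte.

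Other values moved with the genotype in this line. The genes listed held 74.2% to 74.7% of the authors' total in ZH Het and 66.0% to 68.2% in ZH KO libraries, a total that enters the RPM used here. Of the 12 oocyte markers, 3 were lower in every ZH KO library than in every ZH Het library, among them Bmp15 (2014 to 3112 RPM in ZH Het and 384 to 868 RPM in ZH KO) and Oosp1 (547 to 747 and 120 to 184 RPM), 1 was higher, and 8 overlapped. The sum of 5 two-cell embryo markers found in the table was 14.7 to 22.6 RPM in ZH Het and 325 to 639 RPM in ZH KO oocytes. The 9 granulosa or cumulus markers found summed to 38.9 to 48.1 RPM and 33.8 to 70.4 RPM, and the 2 blood markers to 2.21 to 2.90 RPM and 5.32 to 10.8 RPM. Usp17la of the two-cell markers and Ptprc of the blood markers were at 0 in all ZH Het libraries, and the granulosa regulator Foxl2 was at 0 in all ZH KO libraries. Of the 9 granulosa or cumulus markers, 3 were higher in every ZH KO library, namely Fshr, the follicle-stimulating hormone receptor (0.36 to 2.90 RPM in ZH Het and 4.37 to 12.1 RPM in ZH KO), Inha (0 to 1.03 and 2.26 to 5.05 RPM) and Inhba (0 to 0.43 and 0.81 to 1.98 RPM), none was lower, and 6 overlapped, Cyp19a1 with 24.8 to 28.7 and 11.6 to 33.7 RPM. Both blood markers and 4 of the 5 two-cell markers were higher without overlap. Their part in the values of the repair genes was not tested.

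In damage sensing and checkpoint signalling, 2 of 10 genes rose and 2 fell. Atm (chr9:53439149-53536740), the kinase called up by double-strand breaks, had 2.66, 2.96, 5.13 and 4.72 RPM in the ZH Het libraries and 18.1, 10.4, 8.74 and 18.6 RPM in the ZH KO libraries. Every ZH KO library was above every ZH Het library (log2 fold change 1.59, SE 0.28, adjusted p = 0.00081). Topbp1, which activates Atr at stalled forks, had 28.4, 24.4, 47.1 and 35 RPM in the ZH Het libraries and 86.8, 80.2, 66.5 and 75.2 RPM in the ZH KO libraries, again without overlap (log2 fold change 1.21, SE 0.22, adjusted p = 0.00094). Trp53bp1, which guards broken ends from being trimmed, had 91.4, 88.5, 71.2 and 53.1 RPM in the ZH Het libraries and 13.1, 48.5, 21.7 and 13.3 RPM in the ZH KO libraries. It fell in all 4 libraries (log2 fold change -1.79, SE 0.37, adjusted p = 0.0023), least in ZH KO replicate 2, and its log2 fold change without that library was -2.19, adjusted p = 7.5e-05. Of the exon bases of Trp53bp1, 22.1% are shared with Tubgcp4 on the other strand. The fourth gene that passed was Mdc1, a scaffold at broken DNA, which is named here after its values were seen (log2 fold change -0.49 ± 0.17, adjusted p = 0.030), and which lost its call without ZH Het replicate 3 or 4 or ZH KO replicate 4 (adjusted p 0.0725 to 0.0872) and with the replicate number as a block (adjusted p = 0.060). Chek1 did not pass, with 559.6 ± 61.3 to 558 ± 84 RPM from ZH Het to ZH KO.

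Homologous recombination had 1 gene that rose and 4 that fell of 8. Brca2 (chr5:150522630-150570329) had 164, 168, 209 and 160.03 RPM in the ZH Het libraries and 69.6, 52.1, 71.3 and 70.8 RPM in the ZH KO libraries. The lowest ZH Het library lay far above the highest ZH KO library (log2 fold change -1.40, SE 0.18, adjusted p = 0.00011). Xrcc2, Xrcc3, Rad51b and Rad51c, which act together in this pathway, did not move as one. Xrcc2 fell without overlap, with 14.6, 13.6, 11.2 and 13.8 RPM in the ZH Het libraries and 3.14, 7.35, 4.75 and 4.25 RPM in the ZH KO libraries (log2 fold change -1.32, SE 0.22, adjusted p = 0.00062). Rad51c fell from 40.2 ± 8.71 to 24.3 ± 3.96 RPM (log2 fold change -0.70, SE 0.21, adjusted p = 0.015), a call that was lost without ZH Het replicate 2 (adjusted p = 0.0503). Xrcc3 had 39.1, 40.5, 24.3 and 24.9 RPM in the ZH Het libraries and 3.08, 34.2, 3.32 and 6.6 RPM in the ZH KO libraries, so that ZH KO replicate 2 lay within the range of the ZH Het libraries. It passed the test (log2 fold change -1.96, SE 0.57, adjusted p = 0.014), and without ZH KO replicate 2 its log2 fold change was -2.66, adjusted p = 4.3e-05. Rad51b was the one that rose, from 7.77 ± 1.45 to 13.3 ± 2.1 RPM (log2 fold change 0.71, SE 0.18, adjusted p = 0.0081). Brca1, Rad52 and Rad54l did not pass.

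In non-homologous end joining 2 genes rose and 2 fell of 5, and the 2 subunits of Ku moved in opposite directions. Xrcc5 (chr1:72307421-72394952) had 136, 144, 127 and 131 RPM in the ZH Het libraries and 255, 219, 192 and 235 RPM in the ZH KO libraries, with all ZH KO libraries above all ZH Het libraries (log2 fold change 0.73, SE 0.16, adjusted p = 0.0031). Its partner Xrcc6 had 86.4, 83.7, 64.2 and 74.9 RPM in the ZH Het libraries and 35.5, 51.4, 23.1 and 34.6 RPM in the ZH KO libraries and fell, also without overlap (log2 fold change -1.12, SE 0.23, adjusted p = 0.0024). The ligation step was split in the same way. Xrcc4, the scaffold of the ligase, rose from 32.6 ± 3.47 to 60.9 ± 9.19 RPM (log2 fold change 0.87, SE 0.17, adjusted p = 0.0018), while the ligase itself, Lig4, fell from 24.5 ± 6.87 to 14.6 ± 2.95 RPM (log2 fold change -0.70, SE 0.23, adjusted p = 0.025), a call lost without ZH Het replicate 3 or 4 or ZH KO replicate 3 (adjusted p 0.0582 to 0.0766). Prkdc, the kinase that Ku recruits, was at 5.23 ± 1.97 to 5.29 ± 1.62 RPM and did not pass.

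Of the 8 genes of base excision and single-strand break repair, 1 rose and 3 fell. Ogg1 (chr6:113326972-113335068) had 9.06, 9.89, 8.32 and 8.22 RPM in the ZH Het libraries and 2.18, 4.73, 4.6 and 1.39 RPM in the ZH KO libraries. It was lower in every ZH KO library (log2 fold change -1.32, SE 0.28, adjusted p = 0.0024). Mutyh, the glycosylase that removes adenine set opposite oxidised guanine, fell from 16.5 ± 2.42 to 8.95 ± 3.66 RPM (log2 fold change -0.88, SE 0.26, adjusted p = 0.015). Lig3, the ligase that seals single-strand breaks, fell from 15.3 ± 1.23 to 7.78 ± 0.539 RPM with little spread (log2 fold change -0.89, SE 0.15, adjusted p = 0.00076), and 27.9% of its exon bases are shared with Rffl. Parp2, which marks nicks with ADP-ribose, rose from 32.6 ± 3.77 to 50.3 ± 9.95 RPM (log2 fold change 0.59, SE 0.19, adjusted p = 0.021) with libraries that overlapped, and missed the threshold without ZH Het replicate 1 or 2 or ZH KO replicate 4 (adjusted p 0.0558 to 0.0686). Ung, Apex1 and Parp1 did not pass. Xrcc1, a scaffold of single-strand break repair, had 41.6, 33.9, 27 and 33.7 RPM in the ZH Het libraries and 9.36, 50.7, 8.14 and 14.6 RPM in the ZH KO libraries. It did not pass either (log2 fold change -1.06, SE 0.46, adjusted p = 0.070), but without ZH KO replicate 2, which lay above all ZH Het libraries, its log2 fold change was -1.61 (adjusted p = 0.00027).

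In mismatch repair, the largest rise and one of the steepest falls of the members stood side by side. Msh6 (chr17:87975050-87990883), a sensor of single mispaired bases, had 83.4, 65.7, 76.9 and 71.8 RPM in the ZH Het libraries and 30.5, 29.6, 23.6 and 27 RPM in the ZH KO libraries. Even its lowest ZH Het library was above 2 times the highest ZH KO library (log2 fold change -1.40, SE 0.16, adjusted p = 6.9e-05). Mlh3 (chr12:85234520-85270599), a nuclease that acts at meiotic crossovers, had 1.58, 0.701, 1.87 and 1.43 RPM in the ZH Het libraries and 6.48, 7.54, 9.27 and 6.82 RPM in the ZH KO libraries and rose without overlap (log2 fold change 1.85, SE 0.20, adjusted p = 4.3e-05). The ZH Het values of Mlh3 rest on 9 to 31 reads per library. Msh3 and Pms2 did not pass.

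In nucleotide excision repair 1 gene rose and 1 fell of 8 tested (Ercc2 was too low). Ercc4, the nuclease that cuts on 1 side of a lesion, rose with 7.84, 5.61, 7.84 and 6.49 RPM in the ZH Het libraries and 9.87, 16.5, 9.57 and 15 RPM in the ZH KO libraries, without overlap (log2 fold change 0.76, SE 0.21, adjusted p = 0.012). Ercc5, which cuts on the other side and is named after its values were seen, fell (log2 fold change -0.48 ± 0.17, adjusted p = 0.031), and this was lost without ZH Het replicate 1, 2 or 4 or ZH KO replicate 3 or 4 (adjusted p 0.0537 to 0.0992). Xpc, the sensor of bulky lesions, was higher in every ZH KO library and just missed the threshold (log2 fold change 0.58, SE 0.23, adjusted p = 0.0505). Xpa, which verifies the lesion, did not pass either (log2 fold change 0.58, SE 0.24, adjusted p = 0.060). In the Fanconi anaemia pathway, the transcripts of the protein pair that is ubiquitinated together when a crosslink is met fell together. Fancd2 had 16.9, 18.9, 24.7 and 15 RPM in the ZH Het libraries and 8.66, 10.6, 8.97 and 6.6 RPM in the ZH KO libraries (log2 fold change -1.03, SE 0.20, adjusted p = 0.0018). Fanci had 13, 11.9, 10.2 and 9.66 RPM in the ZH Het libraries and 2.93, 6.21, 5.33 and 5.33 RPM in the ZH KO libraries (log2 fold change -1.06, SE 0.21, adjusted p = 0.0020), and neither gene overlapped between the genotypes. Of the exon bases of Fanci, 13.4% are shared with Polg.

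Among the genes of single-strand binding, clamp and damage tolerance, 2 of 6 rose and 2 fell. Pcna, the sliding clamp, had 69.8, 71.6, 74.9 and 80.1 RPM in the ZH Het libraries and 122, 104, 145 and 126 RPM in the ZH KO libraries and rose without overlap (log2 fold change 0.73, SE 0.16, adjusted p = 0.0037). Rad18, the ubiquitin ligase that acts on this clamp at damaged templates, had 74.6, 79.9, 80.2 and 74.9 RPM in the ZH Het libraries and 50.6, 46.2, 49.8 and 45 RPM in the ZH KO libraries, and fell with very little spread (log2 fold change -0.68, SE 0.15, adjusted p = 0.0031). The subunits of RPA differed. Rpa3 rose from 73 ± 9.88 to 114 ± 21 RPM (log2 fold change 0.63, SE 0.19, adjusted p = 0.015), lost without ZH Het replicate 2 (adjusted p = 0.0507). Rpa1, the large subunit, had 118, 102, 93.2 and 84 RPM in the ZH Het libraries and 24.7, 118, 38.3 and 34.5 RPM in the ZH KO libraries, so that ZH KO replicate 2 matched the highest ZH Het library. It passed (log2 fold change -1.13, SE 0.39, adjusted p = 0.031), as it did when that library was left out (-1.59, adjusted p = 0.00016), but it missed the threshold without ZH Het replicate 1, 2 or 3 or ZH KO replicate 1, 3 or 4 (adjusted p 0.0569 to 0.0801). Rpa2 and Lig1 did not pass.

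**Figure D1:**
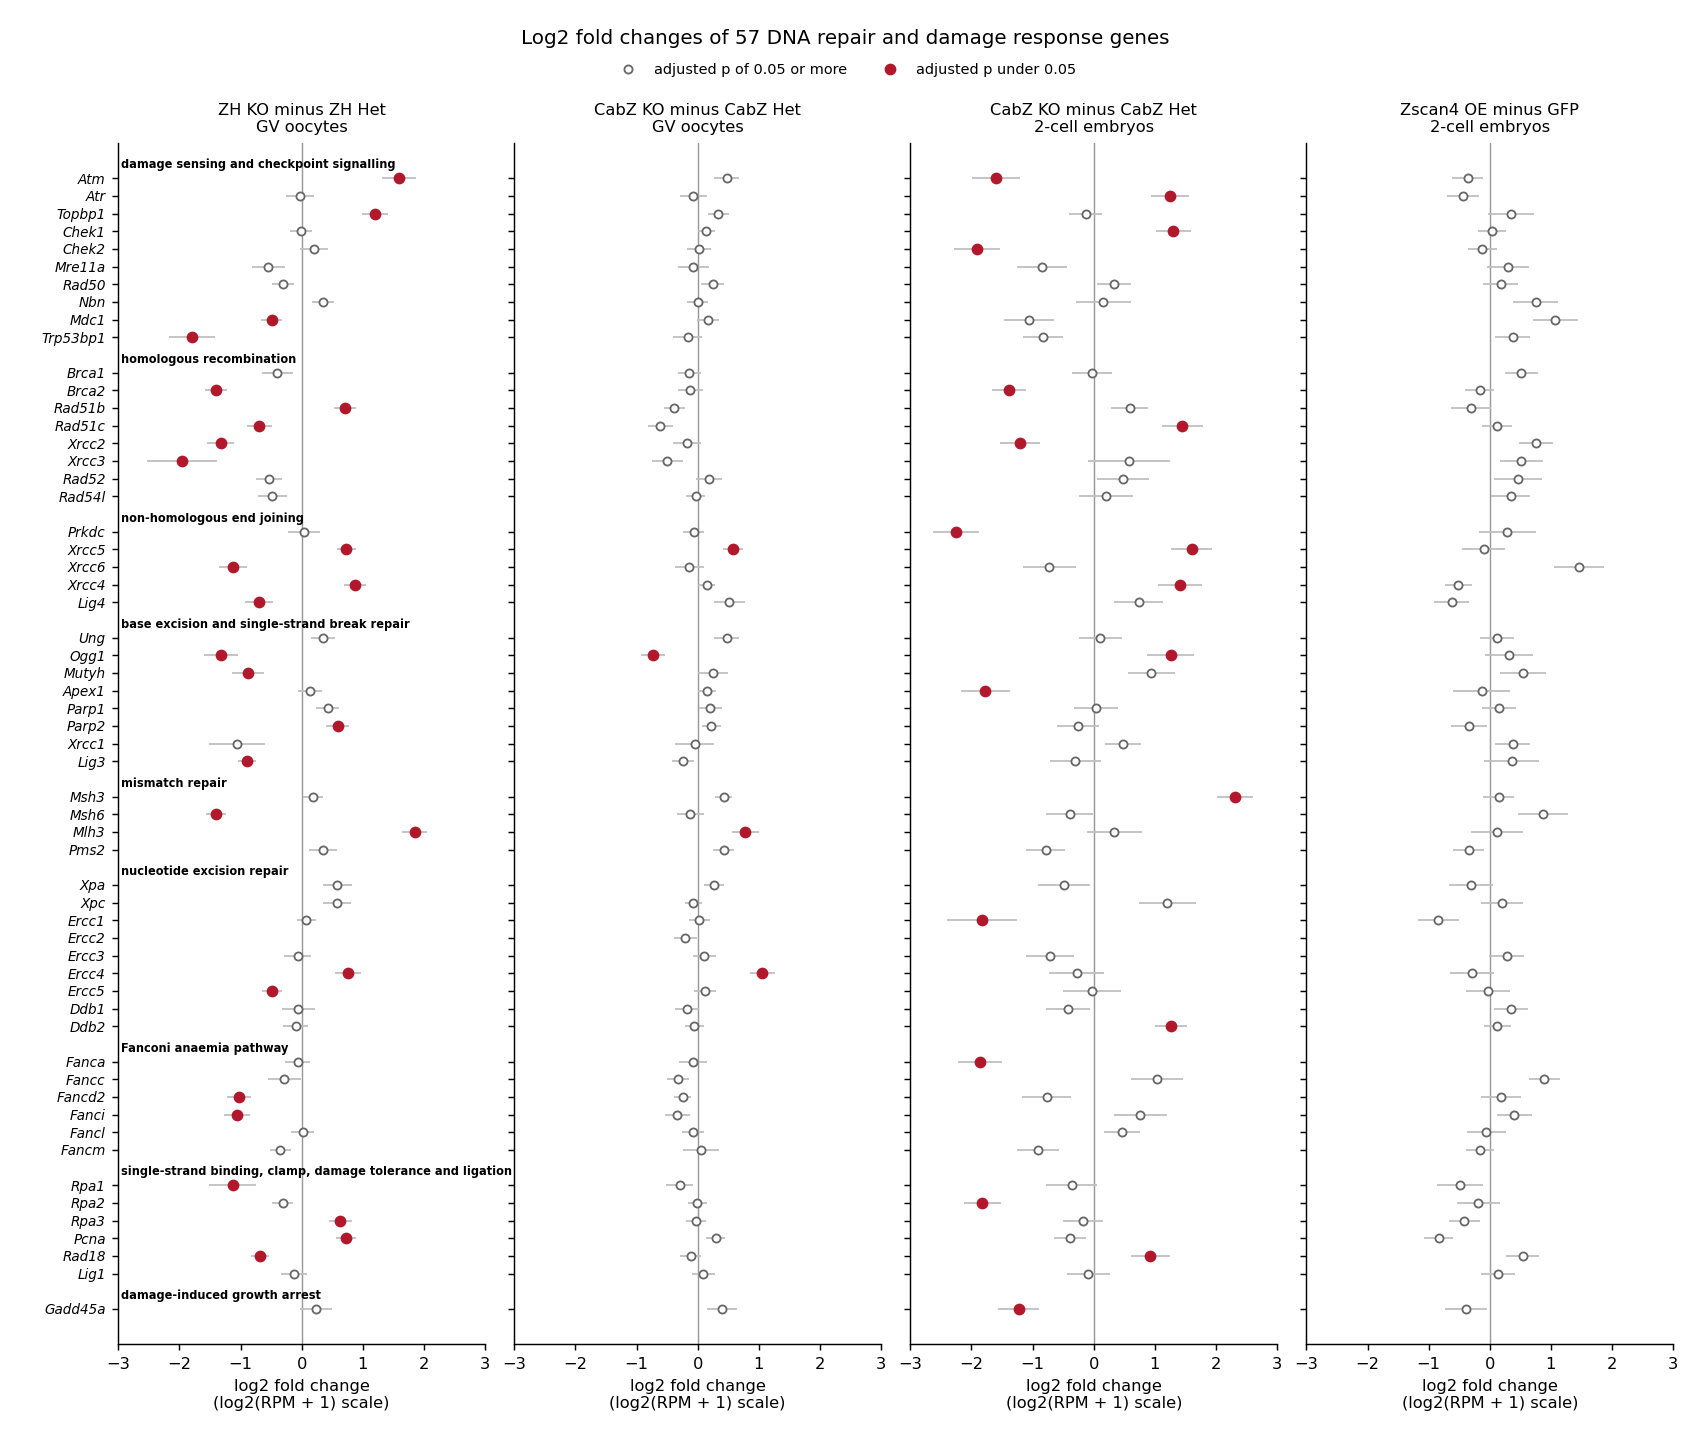
Log2 fold change on the log2(RPM + 1) scale of each tested member, by pathway, in the 4 comparisons. Points are limma estimates, bars 1 SE, and filled points have an adjusted p under 0.05. There are 27 filled points in ZH KO oocytes, 4 in CabZ KO oocytes, 19 in CabZ KO 2-cell embryos and none in Zscan4 OE embryos.

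A wider list of 112 other repair genes, written from general knowledge with earlier results of these data known, moved down more than up in ZH KO oocytes. Of 106 tested, 13 rose (12.3%) and 48 fell (45.3%), with a median log2 fold change of -0.45, where 27.4% of all genes rose and 26.3% fell with a median of -0.04. After the median shift 20 rose and 33 fell with a median of -0.26, and with each library scaled to the reads of the table, 18 rose and 38 fell with a median of -0.30, where the medians of all genes were 0.16 and 0.12. Of all genes, 33.6% rose and 19.5% fell after the median shift, and 32.6% and 20.0% under the other scaling. The 6 with the largest changes were replication polymerase subunits and nucleases for the most part. Pold1, the catalytic subunit of polymerase delta, rose from 0.647 ± 0.258 to 9.62 ± 6.11 RPM (log2 fold change 2.53, SE 0.34, adjusted p = 0.00015). Its ZH Het mean was under the filter of 1 RPM, so it was tested only through its ZH KO libraries. Its partner Pold2 fell from 36.7 ± 7.09 to 10.4 ± 6.36 RPM (log2 fold change -1.87, SE 0.34, adjusted p = 0.00099), and Pole2, of polymerase epsilon, from 29 ± 3.02 to 8.57 ± 3.83 RPM (log2 fold change -1.72, SE 0.25, adjusted p = 0.00026). The flap and fork nuclease Mus81 fell from 72.5 ± 22.5 to 20.8 ± 12.9 RPM (log2 fold change -1.87, SE 0.36, adjusted p = 0.0015), and Fan1, a nuclease of crosslink repair, rose from 1.84 ± 0.861 to 7.94 ± 2.61 RPM (log2 fold change 1.66, SE 0.28, adjusted p = 0.00074). Shprh, a ubiquitin ligase that acts on Pcna, fell from 32.4 ± 4.38 to 9.7 ± 2.27 RPM (log2 fold change -1.66, SE 0.20, adjusted p = 7.3e-05).

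In oocytes that lost Cabin1, another subunit of the same complex, 4 repair transcripts changed. Ercc4, Xrcc5 and Mlh3 rose and Ogg1 fell in CabZ KO against CabZ Het oocytes. Of 57 members tested, 3 rose (5.26%) and 1 fell (1.75%), while 9.31% of all 13589 genes rose and 5.55% fell, so both shares were below those of all genes. All 4 had also passed the test in the same direction in ZH KO oocytes, which is 100% of the 4 members called in the CabZ line and 14.8% of the 27 called in the ZH line. Of all genes, 63.1% of the 2019 called in the CabZ line and 17.3% of the 7359 called in the ZH line were called in the same direction in both. The genotypes of the 2 lines have separate controls, and Cabin1 transcripts were lower in the KO oocytes of both lines.

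Ercc4 (chr16:13109684-13150617) had 6.5, 6.22, 5.59 and 7.19 RPM in the CabZ Het libraries and 11.8, 22.7, 12.7 and 12.2 RPM in the CabZ KO libraries. All CabZ KO libraries were above all CabZ Het libraries (log2 fold change 1.06, SE 0.21, adjusted p = 0.0055), and the log2 fold change was 0.85, adjusted p = 0.0050 without the high CabZ KO replicate 2. It was the member with a fold change above 2, which 4.08% of all genes had upwards and 1.96% downwards. Xrcc5 had 205, 205, 197 and 208 RPM in the CabZ Het libraries and 235, 299, 358 and 343 RPM in the CabZ KO libraries, with CabZ Het libraries close together and all CabZ KO libraries above them (log2 fold change 0.58, SE 0.16, adjusted p = 0.035). Ogg1 had 8.42, 8.65, 8.74 and 6.35 RPM in the CabZ Het libraries and 6.29, 4.58, 4.07 and 3.18 RPM in the CabZ KO libraries, and the highest CabZ KO library fell just short of the lowest CabZ Het library (log2 fold change -0.73, SE 0.19, adjusted p = 0.025). Mlh3 had 1.28, 2.16, 0.63 and 1.21 RPM in the CabZ Het libraries and 3.3, 4.03, 2.09 and 2.41 RPM in the CabZ KO libraries, with 1 CabZ KO library inside the CabZ Het range (log2 fold change 0.78, SE 0.22, adjusted p = 0.037). Its values rest on 7 to 24 reads per CabZ Het library and 20 to 37 reads per CabZ KO library.

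Of these calls only that of Ercc4 held in every fit that left out 1 library. Xrcc5 missed the threshold without CabZ Het replicate 1, 2, 3 or 4 or CabZ KO replicate 2, 3 or 4 (adjusted p 0.0558 to 0.104). For Ogg1 the call was lost without CabZ Het replicate 1, 2 or 3 or CabZ KO replicate 3 or 4 (adjusted p 0.0576 to 0.0766), and for Mlh3 without CabZ Het replicate 1, 3 or 4 or CabZ KO replicate 1, 2 or 4 (adjusted p 0.0536 to 0.09997). With the replicate number as a block, Xrcc5 had an adjusted p of 0.061, and with the libraries scaled as deposited, Ogg1 had 0.074 and Mlh3 0.076.

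The remaining 53 members did not pass the test, and 10 of the 57 had an unadjusted p under 0.05. Libraries did not overlap in 5 members that were higher and 2 that were lower in CabZ KO, against 11.9% and 8.48% of all genes. Among them were Msh3 (log2 fold change 0.43 ± 0.14, adjusted p = 0.068) and Pms2 (0.43 ± 0.17, adjusted p = 0.13) of mismatch repair and Pcna (0.30 ± 0.16, adjusted p = 0.25) on the higher side, and Fancd2 (-0.24 ± 0.14, adjusted p = 0.28) on the lower side. Genes with large differences in ZH KO oocytes had small ones here, such as Brca2 at 145, 139, 229 and 228 RPM against 172, 186, 155 and 152 RPM (log2 fold change -0.12 ± 0.20, adjusted p = 0.75), Msh6 at 47.5, 33.7, 67.9 and 59.3 RPM against 48.6, 55.9, 37.5 and 44.9 RPM (-0.12 ± 0.22, adjusted p = 0.78) and Xrcc6 at 66.8, 39.3, 88.8 and 78.9 RPM against 63.8, 62.4, 48.6 and 65 RPM (-0.14 ± 0.24, adjusted p = 0.77). In each of these genes the first 2 CabZ Het values printed lay below the last 2, so the control mean averages over a split group. Whether the effects of both deletions differ in these genes was not tested, since the tables were scaled separately. The median log2 fold change was -0.01 for the members and 0.00 for all genes.

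Marker genes moved here too, with 1 of 4 two-cell embryo markers and 2 of 7 granulosa or cumulus markers higher in every CabZ KO library and none lower, while all 12 oocyte markers overlapped. The 4 two-cell embryo markers found in the table summed to 20.0 to 30.6 RPM in CabZ Het and 48.8 to 184 RPM in CabZ KO oocytes. The 7 granulosa or cumulus markers summed to 56.2 to 73.1 RPM and 98.9 to 145 RPM, including Fshr at 0.6 to 1.2 RPM and 27.8 to 49.9 RPM and Cyp19a1 at 36.7 to 49.8 and 50.9 to 69.3 RPM. Their part in the 4 calls was not tested.

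**Figure D2:**
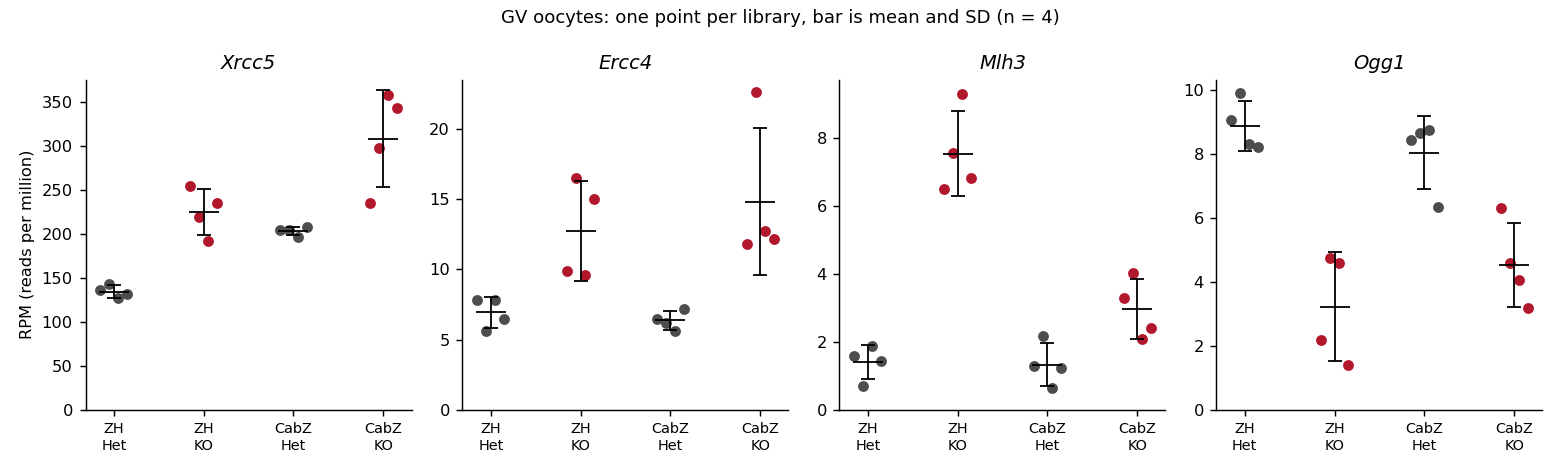
RPM of Xrcc5, Ercc4, Mlh3 and Ogg1 in GV oocytes of the ZH and CabZ lines, with Het libraries in grey, KO libraries in red, 1 point per library, and the mean and SD of each group (n = 4). The KO libraries of both lines sit higher for Xrcc5, Ercc4 and Mlh3 and lower for Ogg1, and 1 CabZ KO library of Mlh3 is inside the CabZ Het range.

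Of the other repair genes, 5 rose (4.76%) and 1 fell (0.952%) of 105 tested in CabZ KO oocytes, where 9.31% of all genes rose and 5.55% fell, with a median log2 fold change of -0.05. Of these, 2 are end-joining factors that work beside Xrcc4. Paxx rose from 0.742 ± 0.529 to 2.84 ± 0.663 RPM (log2 fold change 1.18, SE 0.23, adjusted p = 0.0054) and Nhej1 from 85.9 ± 2.31 to 166 ± 31 RPM (log2 fold change 0.92, SE 0.17, adjusted p = 0.0036). The CabZ Het mean of Paxx was under the filter of 1 RPM, so Paxx was tested only through its CabZ KO libraries. Fan1 rose from 2.43 ± 0.352 to 6.21 ± 1.73 RPM (log2 fold change 1.05, SE 0.18, adjusted p = 0.0029). Smc1a, a core subunit of cohesin, rose from 69.4 ± 21 to 134 ± 23.5 RPM (log2 fold change 0.98, SE 0.23, adjusted p = 0.014), and Wee1, a kinase that restrains entry into mitosis, from 8.1 ± 1.39 to 13.4 ± 0.943 RPM (log2 fold change 0.68, SE 0.16, adjusted p = 0.015). Faap100, of the Fanconi core complex, fell from 3.16 ± 0.862 to 1.33 ± 0.96 RPM (log2 fold change -0.90, SE 0.26, adjusted p = 0.038).

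The third comparison asked how the embryos made from Cabin1-deleted oocytes differ at the 2-cell stage. Checkpoint kinases split. Atm and Chek2, kinases of the double-strand break arm, fell, and Atr and Chek1, kinases of the replication stress arm, rose. The other 6 genes of damage sensing and checkpoint signalling (Topbp1, Mre11a, Rad50, Nbn, Mdc1 and Trp53bp1) did not pass. Msh3 and both Xrcc5 and Xrcc4 of end joining rose, while Prkdc, Brca2, Rpa2 and Apex1 fell. Of 56 members tested, 9 rose (16.1%) and 10 fell (17.9%), against 25.5% and 19.2% of all 17530 genes tested.

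With a fold change above 2, 8 members rose and 10 fell, where 23.4% and 17.2% of all genes did. Libraries did not overlap in 10 members that were higher and 10 that were lower in CabZ KO, against 22.8% and 17.7% of all genes. The median log2 fold change was -0.11 for the members and 0.18 for all genes. These counts depended on the scaling. After a median shift 12 rose and 10 fell, where 29.0% of all genes rose and 17.6% fell. With the libraries scaled as deposited 17 rose and 5 fell, where 39.3% of all genes rose and 9.08% fell. The median of all genes then moved to 0.71. Without CabZ KO replicate 4, which held the most Lyz2, 8 rose and 10 fell, since Ogg1 and Rad18 no longer passed and Xpc did. Of all genes, 22.7% then rose and 16.2% fell. The 4 blood markers found summed to 46.0 to 101 RPM in CabZ Het and 101 to 887 RPM in CabZ KO embryos, and 2 of them were higher without overlap. The 12 oocyte markers summed to 7824 to 9364 RPM and 7467 to 15605 RPM, of which Dppa3 held 5942 to 7396 and 2984 to 8016 RPM. Of these 12, 8 were higher in every CabZ KO library and none lower, among them Gdf9 (67.7 to 97.1 RPM in CabZ Het and 170 to 534 RPM in CabZ KO), Bmp15 (187 to 311 and 507 to 1021 RPM), Ooep (55.4 to 143 and 332 to 1167 RPM) and Zp2 (31.8 to 61.8 and 122 to 285 RPM). The 6 two-cell embryo markers summed to 1594 to 2693 RPM and 1327 to 4296 RPM, and 1 of them, Tdpoz4, was lower without overlap. The 7 granulosa or cumulus markers summed to 43.1 to 83.1 RPM and 61.7 to 83.7 RPM. Of these, Fshr (0 in all CabZ Het and 6.67 to 13.8 RPM in CabZ KO embryos), Cyp19a1 and Kitl were higher without overlap, Nr5a2 was lower (37.5 to 66.2 and 14.4 to 31.9 RPM), and Foxl2, Cyp11a1 and Hsd17b1 overlapped. Their part in the values of the repair genes was not tested.

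In damage sensing and checkpoint signalling, 2 of 10 genes rose and 2 fell. Chek2 (chr5:110839979-110874145) had 41.2, 77.9, 83.8 and 70.9 RPM in the CabZ Het libraries and 20.9, 19.8, 23.2 and 8.25 RPM in the CabZ KO libraries. All CabZ KO embryos lay below all CabZ Het embryos (log2 fold change -1.91, SE 0.38, adjusted p = 0.0030). Atm had 183, 225, 252 and 198 RPM in the CabZ Het libraries and 80.3, 104, 91.6 and 30.1 RPM in the CabZ KO libraries and fell without overlap as well (log2 fold change -1.60, SE 0.39, adjusted p = 0.0083), with an adjusted p of 0.053 when the libraries were scaled as deposited. Chek1 (chr9:36708482-36727065) had 386, 261, 227 and 356 RPM in the CabZ Het libraries and 655, 766, 749 and 813 RPM in the CabZ KO libraries, again without overlap but upwards (log2 fold change 1.31, SE 0.28, adjusted p = 0.0044). Atr, the kinase that acts on Chek1, rose from 10.9 ± 3.25 to 27.1 ± 6.77 RPM (log2 fold change 1.24, SE 0.31, adjusted p = 0.0091). Next to these values, CabZ KO oocytes had log2 fold changes of 0.47 ± 0.21, adjusted p = 0.16 for Atm, 0.02 ± 0.19, adjusted p = 0.96 for Chek2, 0.14 ± 0.14, adjusted p = 0.58 for Chek1 and -0.07 ± 0.22, adjusted p = 0.87 for Atr, none of which passed.

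In homologous recombination 1 gene rose and 2 fell of 8. Brca2 had 688, 683, 549.6 and 754 RPM in the CabZ Het libraries and 262, 249, 333 and 189 RPM in the CabZ KO libraries and fell without overlap (log2 fold change -1.39, SE 0.28, adjusted p = 0.0032), with an adjusted p of 0.051 under the scaling as deposited. Xrcc2 had 15.7, 15.7, 10.4 and 15.7 RPM in the CabZ Het libraries and 4.28, 6.23, 9.32 and 3.78 RPM in the CabZ KO libraries (log2 fold change -1.20, SE 0.32, adjusted p = 0.012), and its adjusted p under that scaling was 0.13. Rad51c moved up, having 7.55, 5.16, 15.5 and 8.37 RPM in the CabZ Het libraries and 29.3, 19.8, 27.5 and 24.2 RPM in the CabZ KO libraries, without overlap (log2 fold change 1.45, SE 0.34, adjusted p = 0.0066).

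End joining showed the widest spread of any pathway, with 2 genes that rose and 1 that fell of 5. Prkdc (chr16:15637866-15842235), the catalytic subunit of DNA-dependent protein kinase, had 24.8, 41.3, 63.2 and 36.8 RPM in the CabZ Het libraries and 8.06, 5.57, 13.5 and 4.98 RPM in the CabZ KO libraries. It had the largest fall of the members (log2 fold change -2.25, SE 0.38, adjusted p = 0.0014). Xrcc5, the Ku subunit that helps to call Prkdc to broken ends, had 8.55, 5.67, 7.9 and 12 RPM in the CabZ Het libraries and 26.3, 18.7, 26.4 and 41.4 RPM in the CabZ KO libraries and rose without overlap (log2 fold change 1.60, SE 0.33, adjusted p = 0.0036). Xrcc4 rose from 22.1 ± 9.43 to 58.4 ± 16.8 RPM (log2 fold change 1.41, SE 0.36, adjusted p = 0.010). The Ku partner Xrcc6 did not pass, with 14.1, 6.04, 10 and 7.28 RPM against 8.73, 8.94, 3.16 and 2.24 RPM, and neither did Lig4.

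In base excision repair, Apex1 fell with 61.8, 146, 114 and 112 RPM in the CabZ Het libraries and 50.7, 31.2, 32.4 and 14.8 RPM in the CabZ KO libraries, without overlap (log2 fold change -1.77, SE 0.41, adjusted p = 0.0061), in a gene that shares most of its exon bases with Pip4p1. Ogg1 rose with 0.126, 1.01, 0.877 and 0.849 RPM in the CabZ Het libraries and 2.57, 3.35, 1.26 and 6.36 RPM in the CabZ KO libraries (log2 fold change 1.26, SE 0.38, adjusted p = 0.022). These are few reads, 1 to 8 per CabZ Het library and 8 to 37 per CabZ KO library, and the call was lost without CabZ Het replicate 1 or CabZ KO replicate 2 or 4 (adjusted p 0.0515 to 0.0559). The CabZ Het mean of Ogg1 was also under the filter of 1 RPM, so only its CabZ KO libraries brought Ogg1 into the test. Msh3 (chr13:92211872-92355003) of mismatch repair had the largest rise of the members. It had 50.3, 32, 39.5 and 63.3 RPM in the CabZ Het libraries and 249.999, 238, 213 and 209.6 RPM in the CabZ KO libraries, and the lowest CabZ KO library was far above the highest CabZ Het library (log2 fold change 2.31, SE 0.29, adjusted p = 0.00047). Msh6, Mlh3 and Pms2 did not pass.

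In nucleotide excision repair, Ddb2 rose with 50.1, 37.7, 36.2 and 33.8 RPM in the CabZ Het libraries and 97.9, 107, 82.2 and 95.9 RPM in the CabZ KO libraries (log2 fold change 1.27, SE 0.26, adjusted p = 0.0037), without overlap. Ercc1, the partner of the nuclease Ercc4, fell from 25.4 ± 7.53 to 8.49 ± 7.35 RPM (log2 fold change -1.82, SE 0.58, adjusted p = 0.026) with libraries that overlapped. This call was lost without CabZ Het replicate 2 or 3 (adjusted p 0.0606 to 0.0669), and under the scaling as deposited (adjusted p = 0.1015). Ercc4, which had risen in the oocytes, had 21.5, 74.7, 30.7 and 52.9 RPM against 22.9, 44.2, 55.4 and 21 RPM and did not pass. Fanca, a large subunit of the Fanconi core complex, had 8.41, 17.6, 17.8 and 16.9 RPM in the CabZ Het libraries and 1.88, 2.56, 5.85 and 3.78 RPM in the CabZ KO libraries and fell without overlap (log2 fold change -1.86, SE 0.36, adjusted p = 0.0028).

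Of the single-strand binding group, Rpa2, the subunit of RPA that the damage kinases phosphorylate, had 119, 104, 183 and 152 RPM in the CabZ Het libraries and 46.2, 41, 39.7 and 27.2 RPM in the CabZ KO libraries. It fell without overlap (log2 fold change -1.82, SE 0.30, adjusted p = 0.0013), while Rpa1 and Rpa3 did not pass. Rad18 rose from 18.5 ± 6.34 to 35.2 ± 6.68 RPM (log2 fold change 0.93, SE 0.32, adjusted p = 0.036), lost without CabZ Het replicate 1 or 3 or CabZ KO replicate 2, 3 or 4 (adjusted p 0.0671 to 0.0943). Gadd45a, a small protein that is induced by stress and slows growth, had 31.8, 81.4, 46.8 and 55.6 RPM in the CabZ Het libraries and 20.3, 23.9, 25.8 and 16.1 RPM in the CabZ KO libraries and fell without overlap (log2 fold change -1.23, SE 0.33, adjusted p = 0.013), with an adjusted p of 0.17 under the scaling as deposited. Of its exon bases, 19.5% are shared with E230016M11Rik. Pcna was lower in every CabZ KO library but did not pass (log2 fold change -0.39, SE 0.26, adjusted p = 0.24).

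**Figure D3:**
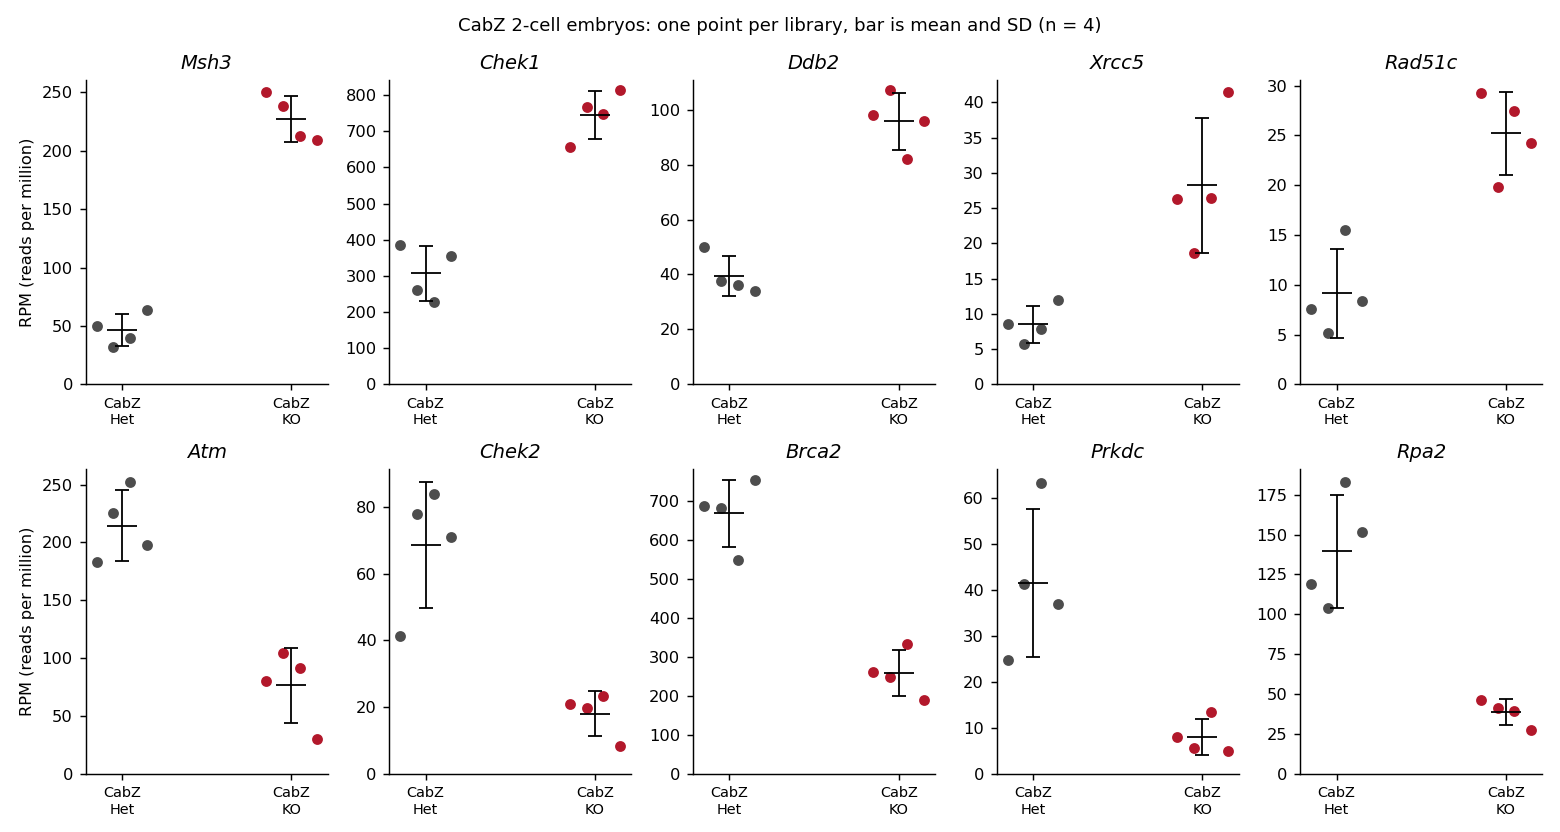
RPM of 10 repair genes in CabZ 2-cell embryos, with CabZ Het libraries in grey, CabZ KO libraries in red, 1 point per library, and the mean and SD of each group (n = 4). The CabZ KO libraries are all above the CabZ Het libraries for Msh3, Chek1, Ddb2, Xrcc5 and Rad51c, and all below them for Atm, Chek2, Brca2, Prkdc and Rpa2.

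Per length, the levels of the members that changed can be set beside those in the oocytes. The tables are scaled separately and the CabZ Het embryos enter each difference, so these are values side by side with no test. Prkdc was at 0.499 ± 0.109 RPM per kb in CabZ Het oocytes, 3.28 ± 1.27 RPM per kb in CabZ Het embryos and 0.634 ± 0.306 RPM per kb in CabZ KO embryos. Chek1 was at 234 ± 16, 79 ± 19.4 and 192 ± 17 RPM per kb in that order, and Atm at 0.511 ± 0.143, 21.4 ± 3.08 and 7.65 ± 3.25 RPM per kb. Msh3 was at 26.3 ± 1.93, 11.4 ± 3.35 and 56.1 ± 4.85 RPM per kb, and Rpa2 at 67.5 ± 8.42, 76.9 ± 19.6 and 21.2 ± 4.46 RPM per kb.

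**Figure D4:**
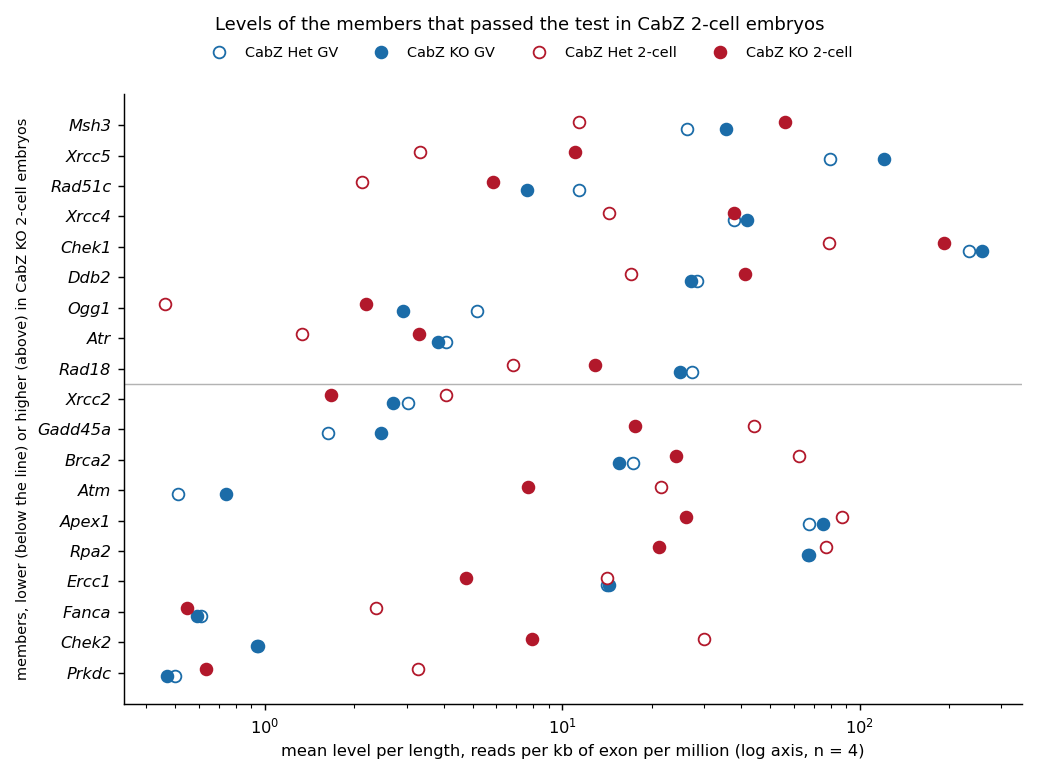
Mean level per length (reads per kb of exon, scaled to RPM, log axis, n = 4) of the 19 members that passed the test in CabZ 2-cell embryos, in oocytes (blue) and 2-cell embryos (red) with open points for CabZ Het and filled points for CabZ KO. Among the red points, CabZ KO lies to the right of CabZ Het for the 9 genes above the line and to the left for the 10 below it.

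Of the members called, 8 passed in both ZH KO oocytes and CabZ KO 2-cell embryos, which is 29.6% of the 27 and 42.1% of the 19. Of all genes, 3144 passed in both, 42.7% of the 7359 called in the oocytes and 40.1% of the 7836 called in the embryos, with the same direction in 55.4% of the 3144. The direction was the same in 4 of them, with Brca2 and Xrcc2 down and Xrcc5 and Xrcc4 up. It was opposite in the other 4, since Atm was up in the oocytes and down in the embryos, and Rad51c, Ogg1 and Rad18 were down in the oocytes and up in the embryos. Cabin1 transcripts were lower in both of these KO groups.

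Of the 112 other repair genes, 108 were tested in the 2-cell embryos, of which 12 rose (11.1%) and 29 fell (26.9%), with a median log2 fold change of -0.21, where 25.5% of all genes rose and 19.2% fell with a median of 0.18. With the libraries scaled as deposited the order turned, as 29 rose and 9 fell with a median of 0.33, where 39.3% of all genes rose and 9.08% fell with a median of 0.71. Rad51ap1, which helps strands to pair in recombination, fell from 132 ± 24.5 to 20.2 ± 11.4 RPM (log2 fold change -2.77, SE 0.37, adjusted p = 0.00060), and Fancf, an adaptor of the Fanconi core, from 6.91 ± 4.99 to 0.483 ± 0.405 RPM (log2 fold change -2.27, SE 0.42, adjusted p = 0.0022). Fancf was tested only through its CabZ Het libraries, as its CabZ KO mean was under the filter of 1 RPM. Gadd45g, a relative of Gadd45a, rose from 5.97 ± 3.79 to 30.9 ± 8.41 RPM (log2 fold change 2.35, SE 0.43, adjusted p = 0.0020). Nhej1 rose from 27.7 ± 2.05 to 139.6 ± 31.7 RPM (log2 fold change 2.27, SE 0.27, adjusted p = 0.00040), as it had in the oocytes. The glycosylase Neil3 rose from 24.4 ± 13.6 to 99.2 ± 21.7 RPM (log2 fold change 2.16, SE 0.44, adjusted p = 0.0036). H2afx, the histone that Atm phosphorylates around breaks, rose from 20.8 ± 12.4 to 79.9 ± 22.1 RPM (log2 fold change 2.07, SE 0.46, adjusted p = 0.0053).

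The last RNA-seq comparison asked what Zscan4d RNA does to 2-cell embryos. No member passed the test among 55 tested in the libraries labelled Zscan4 OE against GFP, and 7 had an unadjusted p under 0.05. Of all 11550 genes tested, 0.0606% rose and 0.675% fell. Libraries did not overlap in 4 members that were higher and 2 that were lower in Zscan4 OE, against 8.01% and 6.87% of all genes. The median log2 fold change was 0.14 for the members and 0.10 for all genes. Of the 112 other repair genes, 93 were tested and none passed. The 6 two-cell embryo markers found summed to 1401 to 2099 RPM in GFP and 623 to 1322 RPM in Zscan4 OE libraries.

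The members nearest the threshold were these. Fancc had 13.4, 13.3, 17.3 and 15.4 RPM in the GFP libraries and 22.5, 36.9 and 27.3 RPM in the Zscan4 OE libraries (log2 fold change 0.89, SE 0.25, adjusted p = 0.14). Pcna had 92.7, 77.4, 88.6 and 62.2 RPM in the GFP libraries and 40.8, 42.3 and 49.5 RPM in the Zscan4 OE libraries (log2 fold change -0.83, SE 0.24, adjusted p = 0.15). For both, the groups did not overlap. Xrcc6 was at 2.42 to 8.76 RPM in GFP and 7.60 to 22.6 RPM in Zscan4 OE libraries (log2 fold change 1.46, SE 0.41, adjusted p = 0.15). The other 4 with an unadjusted p under 0.05 were Mdc1 (log2 fold change 1.07 ± 0.37, adjusted p = 0.20), Xrcc2 (0.75 ± 0.28, adjusted p = 0.23), Xrcc4 (-0.51 ± 0.23, adjusted p = 0.29) and Ercc1 (-0.84 ± 0.34, adjusted p = 0.26). Chek1, which had risen in CabZ KO embryos, was at 935, 833, 1029 and 1025 RPM against 953, 1147 and 853 RPM here (log2 fold change 0.04, SE 0.23, adjusted p = 0.95), and Msh3 at 39.3, 33.4, 45.2 and 39 RPM against 33.2, 53.8 and 45 RPM (log2 fold change 0.14, SE 0.25, adjusted p = 0.79).

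ATAC-seq peaks of CabZ GV oocytes were looked for within 500 bases of any annotated start of each member, as a description without a test. Libraries had very different numbers of peaks, 43399, 67074 and 111327 in CabZ Het and 46070, 19160 and 29600 in CabZ KO. A peak lay near a start of 13, 21 and 41 of the 57 members in the CabZ Het libraries (22.8%, 36.8% and 71.9%), against 13.3%, 26.9% and 47.8% of 14058 protein-coding genes. In the CabZ KO libraries it lay near 25, 6 and 14 members (43.9%, 10.5% and 24.6%), against 20.0%, 6.22% and 8.43% of those genes. The share was above that of genes at large in each of the 6 libraries, and the libraries of both genotypes overlapped in it. The genes at large were taken whatever their transcript level, while all 57 members passed the filter of 1 RPM in CabZ oocytes. The sets were not matched by level, so the part of level in this difference was not tested. With peaks of a −log10 q of at least 5 this held in 5 of the 6, since CabZ KO replicate B then had none of the 57 members and 0.377% of genes.

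Chek2, Msh3, Ogg1 and Ung, the uracil glycosylase, had a peak in all 6 libraries (7.02% of members and 0.790% of genes). Msh3 and Ogg1 are among the genes whose promoters are shown above, but the peaks lay near any annotated start and were not tied to the windows printed. Xrcc5 had a peak in 2 CabZ Het libraries and 1 CabZ KO library, Mlh3 in 1 CabZ Het library and Brca2 in 1 CabZ KO library. Ercc4, which rose in CabZ KO oocytes, had none. It was 1 of 10 members without a peak in any library (17.5% of members and 42.4% of genes), with Atm, Ddb2, Ercc3, Fancm, Mre11a, Rad52, Rad54l, Xpa and Xpc.

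**Figure D5:**
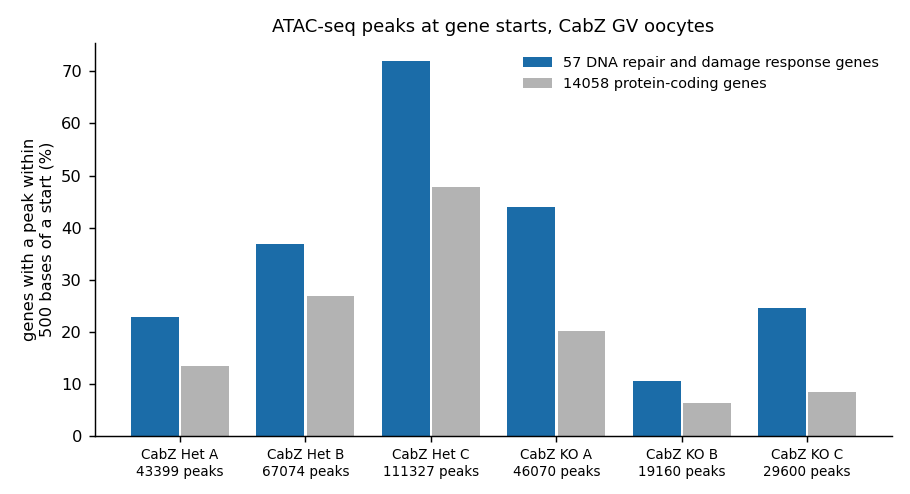
Percent of the 57 members and of 14058 protein-coding genes with an ATAC-seq peak within 500 bases of a start, for each of the 6 CabZ GV oocyte libraries, beside the number of peaks called in it. The members stand above all genes in each library, from 10.5% against 6.22% in CabZ KO replicate B to 71.9% against 47.8% in CabZ Het replicate C. The sets were not matched by transcript level.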

How the data were processed

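The members and all gene lists were chosen with earlier results of these data known. Per the methods and processing notes, the authors aligned Smart-seq2 reads to mm10 with STAR 2.5.3a. The ZH and Zscan4 OE tables were deposited as FPKM that the authors computed over the whole gene span, with 0.01 or 0.001 added. The CabZ tables were deposited as a score: reads that the authors divided by the span squared, with every library scaled to the same sum and 0.01 added, as read from the values. Peak lists were deposited as the authors' MACS2 called them for each library, with −log10 p and −log10 q values.

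The offset was subtracted and RPM were restored, relative to the authors' total (FPKM tables) or to the reads of the table (CabZ), while levels per kb of exon were relative to the reads of the table throughout. Numbers of reads were estimated in each library from the step between low values that best fitted 1 read. The share of low values that came out as whole reads was under 90%, so no count test was run. Exons were those of GENCODE M21. Genes with a mean of at least 1 RPM were tested in each table apart on log2(RPM + 1) (limma 3.58.1, run in R 4.3.3), without trend or block, with Benjamini-Hochberg adjustment over the table. The scripts were tested on simulated data. Members were named if they passed, up to 25 per comparison by size, or led their pathway by level, and of the other repair genes the 6 largest changes that passed. Alternatives were other filters, pseudocounts and scalings, a trend, a replicate block, and leaving out each library. Python 3.11.15 with pandas 2.3.3, numpy 2.4.6 and matplotlib 3.10.9 did the rest. Depth was estimated at 5818819 to 21847738 reads on genes per library, and the precision it gives covers counting error only.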

Additional observations from a re-analysis of the deposited data

Results flagged for a closer look

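Among the members called in a comparison, 1 library lay far from the other 3 of its group in 9 of 100 groups of 4. The measure was the ratio of its gap to the range of the group (Dixon's 95% critical value, 0.829). The groups share libraries and hold only members that had passed the test on the same values. The usual rate of 1 in 20 therefore cannot be set against this count, which is description only. In the ZH line, Brca2 read 209 RPM in ZH Het replicate 3 (the others 160 to 168) and 52.1 RPM in ZH KO replicate 2 (69.6 to 71.3). The same ZH KO replicate 2 held 34.2 RPM of Xrcc3 (3.08 to 6.60) and 118 RPM of Rpa1 (24.7 to 38.3). Ercc5 read 15.2 RPM in ZH Het replicate 1 (11.6 to 12.2). In CabZ oocytes, Ogg1 read 6.35 RPM in CabZ Het replicate 4 (8.42 to 8.74), and Ercc4 22.7 RPM in CabZ KO replicate 2 (11.8 to 12.7). In CabZ Het 2-cell embryos, Xrcc2 read 10.4 RPM in replicate 3 (15.7 in each of the others) and Fanca 8.41 RPM in replicate 1 (16.9 to 17.8).

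For 2 members all CabZ KO libraries lay on one side of the CabZ Het libraries in the oocytes and on the other side in the 2-cell embryos. The log2 fold change of Ogg1 was -0.73 in GV oocytes and 1.26 in 2-cell embryos, and that of Pcna 0.30 and -0.39. In the 2-cell embryos, Ogg1 had a CabZ Het mean under the filter of 1 RPM and was tested only through its CabZ KO libraries. The difference between the stages was not tested, since the tables were scaled separately, and neither Pcna value passed limma's test.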

How the results depend on the processing

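No member that was called changed sign under any alternative run, and in the Zscan4 OE comparison the count stayed at 0 under all of them. In the ZH line, a filter and pseudocount in FPKM over the gene span, which left 22 members to test, gave 5 members up and 7 down, and with a fold change above 2, 0 up and 2 down. Of all genes, 25.6% then rose and 26.3% fell. A median shift gave 16 up, where 33.6% of all genes rose, and 6 down with a fold change above 2. Scaling to the reads of the table gave 6 down with that fold change. Shares of all genes with that fold change were worked out only in the main run. In CabZ oocytes, the FPKM filter gave 1 up, 0 down and 0 up with the fold change, where 8.20% of all genes rose and 5.73% fell. There, the median shift gave 2 down, the trend 2 down, and the scaling as deposited 0 down, where 5.73%, 6.09% and 3.63% of all genes fell. In 2-cell embryos, the FPKM filter gave 2 up, 1 up with the fold change and 4 down with it, and the scaling as deposited 17 up, 15 of them above 2-fold, and 5 down, all 5 above 2-fold. All genes there had 25.2% up and 30.9% down with the FPKM filter, and 39.3% and 9.08% as deposited. Leaving out 1 library gave 8 to 13 up and 14 to 20 down in the ZH line, 1 to 2 up, 0 to 1 up with the fold change and 0 to 2 down in CabZ oocytes, and 7 to 9 up and 9 to 13 down in 2-cell embryos. The shares of all genes ranged from 23.8% to 27.2% up and 20.6% to 30.1% down in the ZH line. They were 6.90% to 9.15% and 3.50% to 5.93% in CabZ oocytes, and 20.8% to 25.1% and 14.5% to 19.8% in 2-cell embryos. Without any 1 library, 20 of 27 calls held in the ZH line, 1 of 4 in CabZ oocytes and 16 of 19 in 2-cell embryos. With a replicate block, 11 rose and 16 fell in the ZH line, where 26.3% of all genes rose and 25.1% fell. In CabZ oocytes 2 rose and 1 fell, against 8.62% and 5.39% of all genes. In 2-cell embryos 11 rose and 11 fell, against 23.4% and 17.1% of all genes. None passed in the Zscan4 OE comparison, and the calls of Mdc1 (ZH) and Xrcc5 (CabZ oocytes) were lost. Samples share only a number, with correlations of deviations between -0.34 and 0.31 within a number. For the other repair genes, scalings chosen after seeing the data gave 20 up in the ZH line (median shift), 0 down in CabZ oocytes (as deposited), and 29 up and 9 down in 2-cell embryos (as deposited). The matching shares of all genes were 33.6%, 3.63%, 39.3% and 9.08% in that order. An ATAC-seq peak in at least 2 libraries was found for 24 members in CabZ Het and 9 in CabZ KO (42.1% and 15.8%, against 26.3% and 7.498% of genes), and for 6 and 1 with a −log10 q of at least 5 (10.5% and 1.75%, against 3.24% and 0.313%). Causes were not tested. Low reads limit Mlh3 and Ogg1.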
